A study of Mus musculus with 18 samples.

Results

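The genes described here are 9 genes of the canonical Wnt pathway in mouse: the receptors Fzd2, Fzd5 and Fzd7, the co-receptor Lrp6, beta-catenin (Ctnnb1), the DNA-binding partners Tcf7 and Lef1, and the response genes Axin2 and Dkk1. They were taken by name from the 30848 named lines of the authors' expression matrix, where 11 lines carried a member's symbol or an older symbol of the same gene (Catnb for Ctnnb1 and C030016K15Rik for Lrp6). These lines corresponded to 21 array probes, of which 16 passed the filter on dim probes. All 9 genes were among the 16110 genes tested. The filter asked for a detection p-value below 0.05 on at least 2 of the 18 arrays, and the 5 probes left out (1 of Fzd5, 1 of Fzd7 and 3 of Lef1) were above background on 0 arrays.

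The samples were total RNA of mouse embryonic stem (ES) cells, the pluripotent cells of the early embryo kept in culture, from the lines AB2.2 and PL2F8. RNA was taken at days 0, 2, 4, 6 and 8 after withdrawal of leukemia inhibitory factor (LIF), the cytokine that holds mouse ES cells in the undifferentiated state, so that the time course asks which genes change as cells leave that state and whether the lines differ in it. For either line, day 8 was measured on 1 Illumina bead array and the earlier days on 2 arrays each. The labels give no genotype, strain or growth condition for either line. Nor do they tell if replicate arrays stand for separate cultures, and the p-values therefore cover only the scatter among these arrays, part or all of which may be technical.

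In canonical signalling a Wnt ligand binds a Frizzled receptor together with Lrp5 or Lrp6, which inactivates the complex of Axin, Apc and Gsk3 that otherwise marks beta-catenin for destruction. Beta-catenin then enters the nucleus and activates genes bound by TCF and LEF proteins, among them the feedback inhibitors Axin2 and Dkk1. In mouse ES cells the pathway is known to favour self-renewal, largely by relieving repression by Tcf7l1, and in the embryo it is required for the primitive streak. An array measures transcripts, and much of the pathway is regulated at the level of protein.

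The binding sequence of TCF and LEF proteins was searched in the RefSeq promoter windows of the mouse assembly GRCm38.p6, each with 250 bases before and 50 bases after a transcription start. The 4 motifs searched, on both strands, were CTTTG followed by AA, by AT, by TA or by TT. Of 32851 windows, 16.9% held at least 1 match, as did 3 of the 12 windows found for 7 of the members. Fzd2 and Lrp6 had no entry. The windows of 3 members are shown to set a receptor that rose after LIF removal (Fzd7) beside a receptor that fell (Fzd5) and a secreted response gene (Dkk1). They read 5′ to 3′ on the strand of the gene, with matches in capitals. Fzd7 lies at chr1:59481897-59482196 on the plus strand, Fzd5 at chr1:64737701-64738000 on the minus strand and Dkk1 at chr19:30549447-30549746 on the minus strand.
Fzd7: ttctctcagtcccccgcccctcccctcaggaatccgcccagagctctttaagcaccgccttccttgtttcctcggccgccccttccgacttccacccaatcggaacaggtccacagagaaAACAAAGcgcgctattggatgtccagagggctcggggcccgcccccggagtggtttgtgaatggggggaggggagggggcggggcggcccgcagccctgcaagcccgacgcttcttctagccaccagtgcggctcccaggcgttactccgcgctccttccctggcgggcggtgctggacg
Fzd5: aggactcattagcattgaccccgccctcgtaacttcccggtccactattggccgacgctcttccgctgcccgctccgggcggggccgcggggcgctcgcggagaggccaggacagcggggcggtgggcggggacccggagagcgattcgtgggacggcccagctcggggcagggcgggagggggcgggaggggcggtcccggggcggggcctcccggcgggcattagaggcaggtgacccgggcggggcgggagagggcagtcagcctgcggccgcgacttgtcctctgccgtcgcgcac
Dkk1: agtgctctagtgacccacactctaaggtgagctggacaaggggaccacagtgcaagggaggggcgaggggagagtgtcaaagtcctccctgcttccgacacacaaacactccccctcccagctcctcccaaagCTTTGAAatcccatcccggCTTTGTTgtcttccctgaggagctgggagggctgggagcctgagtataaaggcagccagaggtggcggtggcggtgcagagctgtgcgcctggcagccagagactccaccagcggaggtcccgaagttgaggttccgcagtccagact
The Fzd7 window held 1 match, AACAAAG, beginning 130 bases before the start. The Dkk1 window held 2, CTTTGAA at 117 and CTTTGTT at 98 bases before the start, and the Fzd5 window held 0. The third member with a match was Lef1, where 1 of 4 windows held TACAAAG beginning 147 bases before its start. A match describes these letters only, and 3 of 12 windows is too few to set against the share among all windows.

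Signal was corrected for background, quantile normalized and put on the log2 scale, and every level below is such a log2 normalized intensity of the gene's brightest probe. Levels of different probes cannot be compared with each other. The 9 AB2.2 arrays and the 6 PL2F8 arrays of days 0 to 4 had mean signals of 284 to 493, with 41.9% to 45.0% of probes above background. In PL2F8 the 2 arrays of day 6 averaged only 137 and 135, with 40.0% and 37.8% of probes above background, and the single array of day 8 averaged 60.1, with 20.9%. The standard deviation of the difference between replicates over all genes was 0.152 to 0.191 in the other groups and 0.333 in PL2F8 at day 6, so standard errors from the pooled spread may be too small there. When the arrays were scaled to a common median in place of quantile normalization, the median of all genes in PL2F8 at day 6 shifted by -1.08 from day 0, and some directions below flipped with it. PL2F8 at day 8 entered no test, and 7 of the 9 members were not above background there by their brightest probe, although the third probe of Fzd5 was, at 7.16. All 6 markers of undifferentiated ES cells were detected at day 0 in both lines, and their summed normalized signal was between 21700 and 22000 at day 0 and between 4850 and 5050 at day 6 in AB2.2. In PL2F8 it was between 26300 and 26400 at day 0 and between 15500 and 15700 at day 4, where the AB2.2 sum was between 7790 and 8020. On the dim PL2F8 arrays of day 6 it was between 8920 and 9020.

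**Figure D1:**
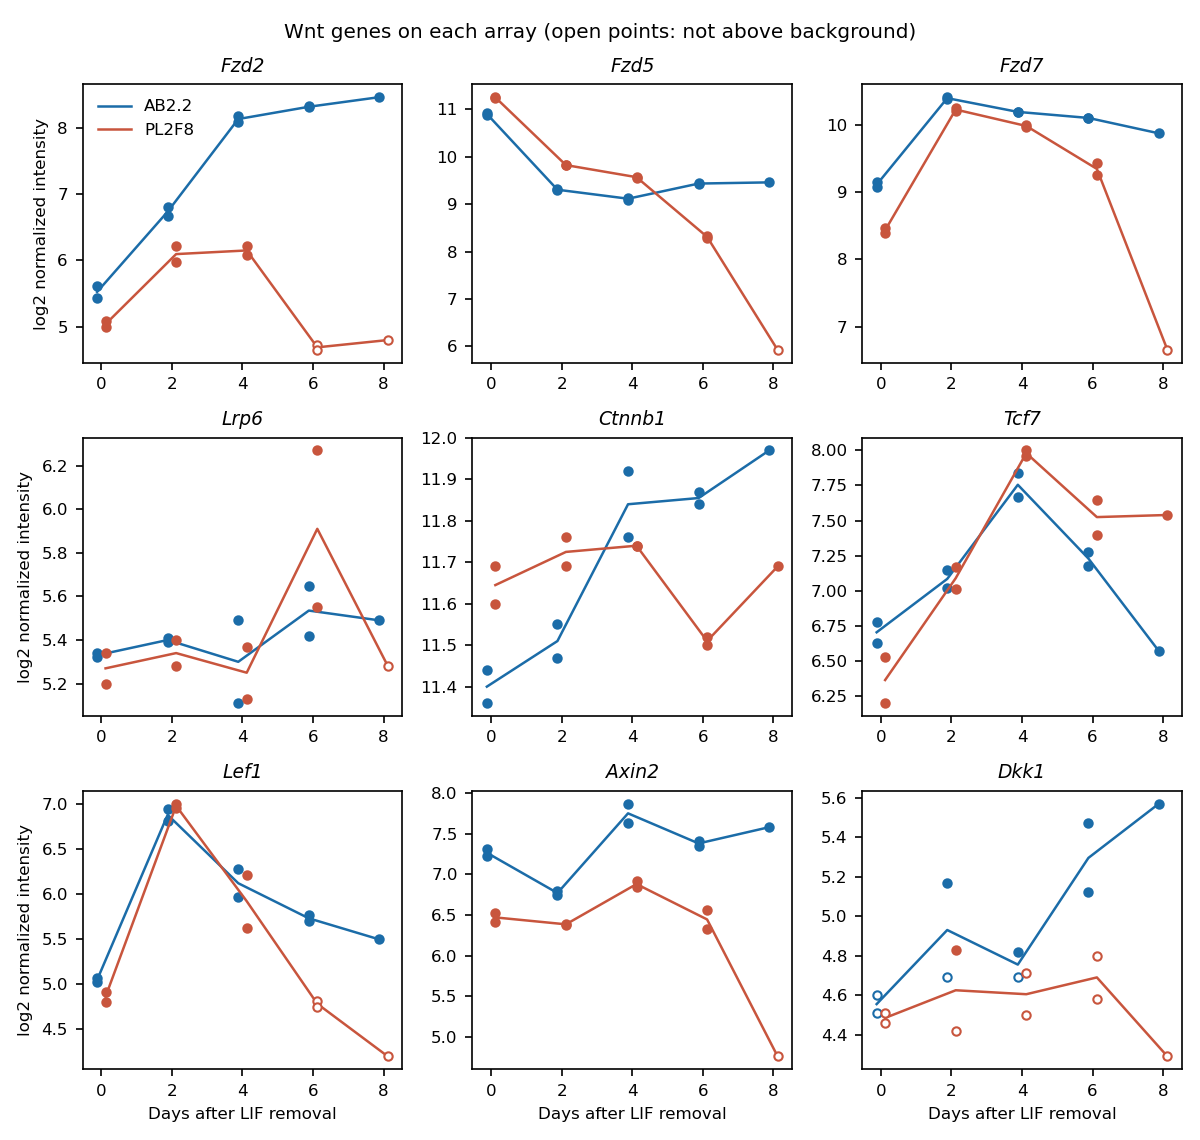
Log2 normalized intensity (vertical axis) of each of the 9 genes against days after LIF removal, with 1 point for each array, lines through the group means, AB2.2 in blue and PL2F8 in red; open points were not above background. Fzd2 reached 8.46 at day 8 in AB2.2 and was not above background in PL2F8 from day 6, while Lef1 was highest at day 2 in both lines.

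Fzd2, a Frizzled receptor (chromosome 11, 102604431 to 102608058), was the member with the largest rise in AB2.2 and the largest difference between the lines. In AB2.2 its level was 5.61 and 5.44 at day 0, 6.67 and 6.80 at day 2, 8.09 and 8.17 at day 4, 8.32 and 8.31 at day 6, and 8.46 at day 8. The PL2F8 levels were 5.09 and 4.99 at day 0, 5.98 and 6.21 at day 2, and 6.08 and 6.22 at day 4, and at days 6 and 8 it was not above background (4.73, 4.65 and 4.80). In AB2.2 every later day lay above the one before it with no overlap, though days 6 and 8 were close, whereas in PL2F8 days 2 and 4 overlapped. Against day 0 the log2 change in AB2.2 was 1.21 ± 0.10 (SE) at day 2, 2.60 ± 0.10 at day 4, 2.79 ± 0.10 at day 6 and 2.94 ± 0.12 at day 8 (limma, adjusted p = 1.3e-06, 6.8e-10, 2.7e-10 and 1.7e-09). In PL2F8 it was 1.05 ± 0.10 at day 2 and 1.11 ± 0.10 at day 4 (limma, adjusted p = 4.4e-06 and 1.4e-06). At day 6 in PL2F8 Fzd2 was at least 1.06-fold lower than at day 0 (limma, adjusted p = 0.0068), a call that was lost without the first PL2F8 array of day 0 (log2 change -0.31, adjusted p = 0.053).

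The lines differed in Fzd2 before and after LIF removal. At day 0 the gene was lower in PL2F8 by a log2 difference of -0.48 ± 0.10 (limma, adjusted p = 0.0031). The change in PL2F8 minus the change in AB2.2, tested as a line by day interaction, was -0.16 (95% CI -0.46 to 0.15, adjusted p = 0.56 in limma) at day 2. It was -1.50 ± 0.14 at day 4 and -3.15 ± 0.14 at day 6 (limma, adjusted p = 9.0e-06 and 6.3e-09), the day 6 value resting on signal not above background in PL2F8. Markers of visceral endoderm, the extraembryonic layer that makes serum proteins, rose alongside Fzd2 in AB2.2, but in PL2F8 they did not follow it. The summed normalized signal of its 9 markers in AB2.2 was between 685 and 719 at day 0, between 2190 and 2260 at day 2, between 8610 and 9320 at day 4 and between 21600 and 21700 at day 6, where 9 of 9 were detected. In PL2F8 the sum was between 225 and 237 at day 0, between 201 and 212 at day 2, where Fzd2 had risen, and between 322 and 325 at day 4, where Afp, Sox17 and Foxa2 were not detected. On the dim PL2F8 arrays of day 6 the sum was between 1100 and 1330, and neither Fzd2 nor the markers Cubn, Gata4 and Foxa2 were above background there. The 6 primitive streak markers also rose in AB2.2, from a sum between 60.3 and 62.1 at day 0 to between 572 and 592 at day 4. Their sum was 335 at day 8, where Fzd2 was highest. In PL2F8 it was between 70.7 and 80.4 at day 0 and between 83.1 and 91.1 at day 4. The part of either cell type in the Fzd2 difference was not tested, and in bulk RNA fewer cells of a type and less RNA per cell cannot be told apart. Over the 15 arrays that were not PL2F8 of days 6 and 8, the genes whose profile was most like that of Fzd2 were Prss8 and Ttr. Prss8 is a membrane-anchored serine protease (Pearson r = 0.984). Ttr encodes transthyretin and is among the visceral endoderm markers (r = 0.983). The arrays share lines and days, so these correlations are a description.

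Fzd5, another Frizzled receptor (chromosome 1, 64730558 to 64737750), fell in both lines. AB2.2 arrays read 10.92 and 10.89 at day 0, 9.30 and 9.31 at day 2, 9.09 and 9.14 at day 4, 9.43 and 9.44 at day 6, and 9.46 at day 8. PL2F8 arrays read 11.25 and 11.26 at day 0, 9.82 and 9.83 at day 2, 9.56 and 9.58 at day 4, 8.29 and 8.33 at day 6, and 5.92, not above background, at day 8. Every later array lay below both day 0 arrays of its line, with the main step within the first 2 days. The log2 change in AB2.2 was -1.60 ± 0.06 at day 2, -1.79 ± 0.06 at day 4, -1.47 ± 0.06 at day 6 and -1.45 ± 0.08 at day 8 (limma, adjusted p = 3.0e-09, 3.8e-10, 1.4e-09 and 1.5e-08). In PL2F8 it was -1.43 ± 0.06, -1.68 ± 0.06 and -2.95 ± 0.06 at days 2, 4 and 6 (limma, adjusted p = 8.1e-09, 1.2e-09 and 4.3e-12). At day 0 Fzd5 was higher in PL2F8 than in AB2.2 by 0.35 ± 0.06 (limma, adjusted p = 0.0013).

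The early fall of Fzd5 did not differ detectably between the lines, and the late one depended on the probe. The interaction was 0.17 (95% CI -0.03 to 0.36, adjusted p = 0.29 in limma) at day 2 and 0.10 (-0.09 to 0.30, adjusted p = 0.43) at day 4, the latter turning to -0.45 (adjusted p = 0.029) with median scaling. At day 6 the fall was larger in PL2F8 by -1.48 ± 0.09 with the brightest probe (limma, adjusted p = 6.0e-08). The other 2 kept probes gave -0.43 (adjusted p = 0.092) and -0.62 (adjusted p = 0.11) at day 6. Both of those probes also fell against day 0 in both lines at every day tested, by -0.89 ± 0.14 and -0.81 ± 0.22 in AB2.2 at day 2 and by -2.19 ± 0.14 and -1.54 ± 0.22 in PL2F8 at day 6. Klf5, a transcription factor of the Krüppel-like family (r = 0.988), and Dnajb13 (r = 0.983) had the profiles most like that of Fzd5 over the same 15 arrays.

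Fzd7, the Frizzled receptor known for its high expression in pluripotent cells (chromosome 1, 59482147 to 59486955), rose where Fzd5 fell. The AB2.2 levels were 9.08 and 9.15 at day 0, 10.39 and 10.42 at day 2, 10.20 and 10.20 at day 4, 10.11 and 10.11 at day 6, and 9.88 at day 8. On the PL2F8 arrays it was 8.40 and 8.47 at day 0, 10.21 and 10.26 at day 2, 9.97 and 10.01 at day 4, 9.26 and 9.44 at day 6, and 6.65, not above background, at day 8. Both lines were highest at day 2 and declined from there while staying above day 0 through day 6. The log2 change in AB2.2 was 1.30 ± 0.08, 1.09 ± 0.08, 1.00 ± 0.08 and 0.76 ± 0.09 at days 2, 4, 6 and 8 (limma, adjusted p = 7.2e-08, 1.3e-07, 2.1e-07 and 2.0e-05). In PL2F8 it was 1.80 ± 0.08 at day 2 and 1.55 ± 0.08 at day 4 (limma, adjusted p = 5.5e-09 and 8.3e-09). At day 6 in PL2F8 it was 0.92 ± 0.08 (limma, adjusted p = 2.9e-07) with quantile normalization but -1.10 (adjusted p = 9.1e-09) with median scaling, where the median of all genes was -1.08.

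PL2F8 started lower in Fzd7 by -0.68 ± 0.08 (limma, adjusted p = 4.4e-05), and its rise to day 2 was larger. The interaction was 0.50 ± 0.11 at day 2 (limma, adjusted p = 0.011; 0.42 and adjusted p = 0.13 with median scaling). At day 4 it was 0.46 ± 0.11 (limma, adjusted p = 0.0061), which flipped to -0.16 (adjusted p = 0.46) with median scaling, where the median of all genes was -0.37. At day 6 it was -0.08 (95% CI -0.31 to 0.15, adjusted p = 0.55 in limma), but -2.40 (adjusted p = 5.9e-12) with median scaling, where the median of all genes was -1.42. Markers of the postimplantation epiblast rose alongside up to day 2. Their summed signal over 4 genes was in AB2.2 between 4890 and 5040 at day 0 and between 19800 and 21100 at day 2. In PL2F8 it was between 2890 and 3040 and then between 17200 and 18800, with Fgf5 not detected at day 0 in either line. The sum was 6040 in AB2.2 at day 8. On the dim PL2F8 arrays of day 6 it was between 2310 and 2420, below day 0, where Fzd7 was above day 0 with quantile normalization. The part of a change of cell state in the Fzd7 values was not tested. The most similar profiles were those of Rab26os (r = 0.973) and Igsf9 (r = 0.967).

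Lrp6, the co-receptor that binds Wnt together with a Frizzled (chromosome 6, 134446476 to 134566913), was called in 1 comparison only. Its level in AB2.2 was 5.34 and 5.32 at day 0, 5.41 and 5.39 at day 2, 5.49 and 5.11 at day 4, 5.42 and 5.65 at day 6, and 5.49 at day 8. The corresponding PL2F8 values were 5.34 and 5.20 at day 0, 5.28 and 5.40 at day 2, 5.13 and 5.37 at day 4, and 6.27 and 5.55 at day 6, and at day 8 it was not above background (5.28). Outside PL2F8 at day 6 every array above background lay between 5.11 and 5.65. In AB2.2 the log2 change was 0.07 (95% CI -0.35 to 0.49) at day 2, -0.03 (-0.45 to 0.39) at day 4 and 0.20 (-0.22 to 0.62) at day 6, none of them called in limma (adjusted p = 0.83, 0.91 and 0.41), although median scaling gave 0.51 (adjusted p = 0.0043) at day 6, where the median of all genes was 0.17. In PL2F8 at day 6 it was 0.64 ± 0.19 (limma, adjusted p = 0.011), a value that rested on the first array of that day, was 0.28 (adjusted p = 0.14) without it, and flipped to -0.29 (adjusted p = 0.078) with median scaling. Without the second PL2F8 array of day 0 it was 0.56 (adjusted p = 0.069), and the gene's second kept probe gave 0.44 ± 0.16 (adjusted p = 0.026). The day 6 interaction of 0.43 ± 0.27 was not called (limma, adjusted p = 0.20), but it was 0.79 (adjusted p = 0.0045) without the second PL2F8 array of day 6, 0.60 (adjusted p = 0.037) with the second probe and -0.80 (adjusted p = 0.0012) with median scaling.

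Ctnnb1 encodes beta-catenin, both the transducer of the pathway and a component of cadherin junctions (chromosome 9, 120933400 to 120960507), and its brightest probe rose slightly in AB2.2. Its level in AB2.2 was 11.36 and 11.44 at day 0, 11.55 and 11.47 at day 2, 11.92 and 11.76 at day 4, 11.84 and 11.87 at day 6, and 11.97 at day 8. PL2F8 stood at 11.69 and 11.60 at day 0, 11.69 and 11.76 at day 2, 11.74 and 11.74 at day 4, 11.52 and 11.50 at day 6, and 11.69 at day 8. All AB2.2 arrays after day 0 were above both of that line's day 0 arrays, and the PL2F8 arrays stayed within a narrow band. The log2 change in AB2.2 was 0.11 at day 2 (limma, adjusted p = 0.32), then 0.44 ± 0.08, 0.45 ± 0.08 and 0.57 ± 0.09 at days 4, 6 and 8 (adjusted p = 3.9e-04, 2.6e-04 and 2.7e-04). In PL2F8 no day was called by this probe (limma, log2 change 0.08, 0.10 and -0.13, adjusted p = 0.45, 0.33 and 0.15), but with median scaling it was -0.43 at day 4 and -2.08 at day 6 (adjusted p = 0.0025 and 2.8e-14), where the medians of all genes were -0.24 and -1.08. With the mean of the gene's probes, PL2F8 was called higher at days 2 and 4 (limma, 0.35 and 0.52, adjusted p = 0.0018 and 5.5e-05) and AB2.2 at day 8 was not called (0.04, adjusted p = 0.77). The interaction was -0.34 ± 0.11 at day 4 and -0.59 ± 0.11 at day 6 (limma, adjusted p = 0.032 and 5.9e-04), and that at day 4 was lost on leaving out any 1 of 5 arrays (the first of AB2.2 at day 0 or day 4, the first of PL2F8 at day 0, or either of PL2F8 at day 4), with adjusted p = 0.071 to 0.13. At day 0 PL2F8 was higher by 0.24 ± 0.08 (limma, adjusted p = 0.033), which did not hold without any 1 of the 4 day 0 arrays (0.20 to 0.29, adjusted p = 0.058 to 0.19).

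The 4 probes of Ctnnb1 did not give the same profile. The second probe followed the brightest, at 10.26 and 10.40 at day 0 and 10.75 and 10.82 at day 6 in AB2.2, and at 10.51 and 10.48 and then 10.33 and 10.43 in PL2F8. The probe named Catnb in the matrix was at 5.28 and 5.51 at day 0 and 6.35 and 6.42 at day 6 in AB2.2, but at 5.27 and 5.11 and then 9.15 and 9.03 in PL2F8. The fourth probe was at 5.92 and 5.98 and then 5.43 and 5.38 in AB2.2, and at 5.46 and 5.50 and then 7.34 and 6.93 in PL2F8. On the dim PL2F8 arrays of day 6 the 2 bright probes were not called (-0.13 and -0.12) while the 2 dim ones went up, by 3.90 ± 0.10 and 1.66 ± 0.16 (limma, adjusted p = 1.6e-11 and 1.3e-06). The Catnb probe was also called higher on brighter arrays, by 1.08 ± 0.10 and 1.60 ± 0.10 in PL2F8 at days 2 and 4 (limma, adjusted p = 5.4e-06 and 8.0e-08) and by 0.66 ± 0.10, 1.16 ± 0.10 and 0.99 ± 0.10 in AB2.2 at days 2, 4 and 6 (adjusted p = 3.0e-04, 1.1e-06 and 3.7e-06). Before background correction and normalization, the signal of the Catnb probe in PL2F8 was 131 and 146 at day 4 and 204 and 184 at day 6, while that of the AB2.2 arrays at day 6 was 185 and 158. The brightness of the arrays is given above, and its part in these values was not tested. With the Catnb probe the day 6 interaction was 2.91 and with the fourth probe 2.21, against -0.59 with the brightest.

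**Figure D2:**
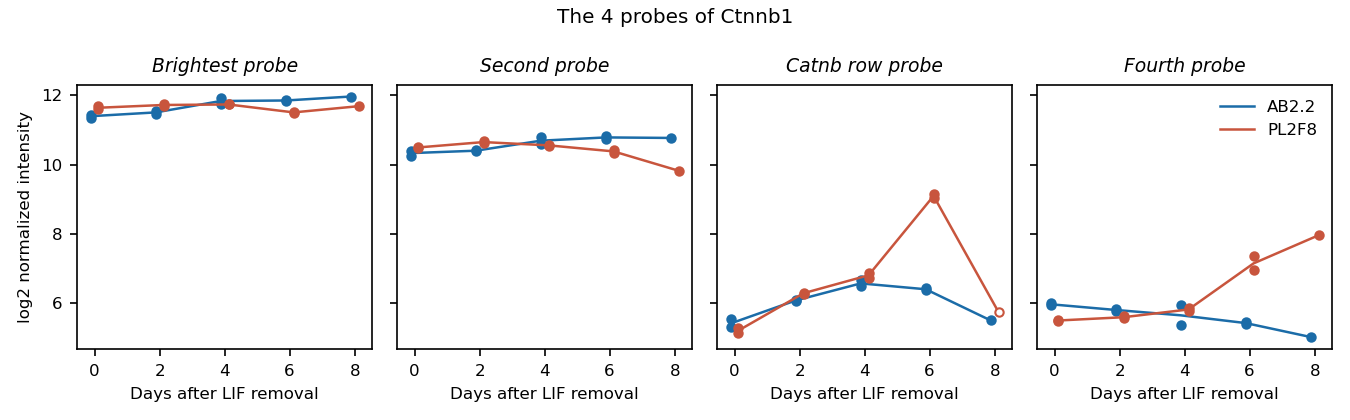
Log2 normalized intensity (vertical axis) of the 4 kept Ctnnb1 probes against days after LIF removal, 1 point for each array, lines through group means, AB2.2 in blue and PL2F8 in red, open points not above background. The 2 bright probes stay within 9.82 to 11.97, whereas the probe named Catnb reads 9.15 and 9.03 in PL2F8 at day 6 against 6.35 and 6.42 in AB2.2.

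Tcf7 encodes TCF1, a TCF family protein that activates Wnt target genes with beta-catenin (chromosome 11, 52246527 to 52283383), and it rose to a peak at day 4 in both lines. On the AB2.2 arrays it was 6.63 and 6.78 at day 0, 7.15 and 7.02 at day 2, 7.84 and 7.67 at day 4, 7.18 and 7.28 at day 6, and 6.57 at day 8. For PL2F8 the level was 6.53 and 6.20 at day 0, 7.01 and 7.17 at day 2, 8.00 and 7.96 at day 4, 7.65 and 7.40 at day 6, and 7.54 at day 8. By its brightest probe AB2.2 was at day 8 below both day 0 arrays, whereas its second probe was at 6.58 against 6.36 and 6.28 at day 0 (0.27 ± 0.12, limma, adjusted p = 0.085). The log2 change in AB2.2 was 0.38 ± 0.12, 1.05 ± 0.12 and 0.52 ± 0.12 at days 2, 4 and 6 (limma, adjusted p = 0.029, 1.2e-05 and 0.0028) and -0.14 at day 8 (adjusted p = 0.49). The day 2 call in AB2.2 did not hold without the first AB2.2 array of day 0 or either of day 2 (0.30 to 0.44, adjusted p = 0.054 to 0.17) or with median scaling (0.31, adjusted p = 0.06), although the gene's second probe gave 0.86 ± 0.10 there (adjusted p = 2.3e-05). In PL2F8 it was 0.72 ± 0.12 at day 2 and 1.61 ± 0.12 at day 4 (limma, adjusted p = 5.2e-04 and 3.4e-07), with 1.69 ± 0.10 at day 4 from the second probe. At day 6 in PL2F8 it was 1.16 ± 0.12 (limma, adjusted p = 2.8e-06) but -0.50 (adjusted p = 0.0011) with median scaling, where the median of all genes was -1.08.

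The rise of Tcf7 was larger in PL2F8 with quantile normalization, by an interaction of 0.56 ± 0.17 at day 4 and 0.64 ± 0.17 at day 6 (limma, adjusted p = 0.027 and 0.0073), and both flipped with median scaling, to -0.05 (adjusted p = 0.85) and -1.43 (adjusted p = 1.1e-07). The day 4 value was also lost without any 1 of 5 arrays (the second of AB2.2 at day 0 or day 4, the second of PL2F8 at day 0, or either of PL2F8 at day 4), at 0.40 to 0.58 with adjusted p = 0.059 to 0.12. The difference between the lines at day 0, -0.34 ± 0.12, was not called (limma, adjusted p = 0.057), though it was -0.38 (adjusted p = 0.036) without the 3 dim PL2F8 arrays and -0.50 (adjusted p = 0.023) without the first PL2F8 array of day 0. The most similar profiles were those of Upf1, a helicase of nonsense-mediated decay (r = 0.975), and the uncharacterised LOC226017 (r = 0.965).

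Lef1, the other TCF family member described here (chromosome 3, 131110297 to 131224357), peaked at day 2 in both lines. AB2.2 stood at 5.02 and 5.06 at day 0, 6.81 and 6.94 at day 2, 5.96 and 6.27 at day 4, 5.69 and 5.76 at day 6, and 5.49 at day 8. The PL2F8 levels were 4.91 and 4.80 at day 0, 7.00 and 6.95 at day 2, and 6.21 and 5.62 at day 4, and it was not above background at days 6 and 8 (4.81, 4.74 and 4.19). The day 2 arrays of the lines lay close together, and in AB2.2 every day after that lay below the one before it. The log2 change at day 2 was 1.83 ± 0.15 in AB2.2 and 2.12 ± 0.15 in PL2F8 (limma, adjusted p = 1.7e-06 and 4.9e-07). At day 4 it was 1.07 ± 0.15 and 1.06 ± 0.15 (limma, adjusted p = 7.8e-05 and 9.3e-05). At day 6 it was still 0.68 ± 0.15 in AB2.2 (limma, adjusted p = 0.0023) and at day 8 0.45 ± 0.19 (adjusted p = 0.069; 0.74 and adjusted p = 0.0026 with median scaling).

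The early Lef1 response did not differ detectably between the lines, with an interaction of 0.29 (95% CI -0.19 to 0.77) at day 2 and -0.01 (-0.49 to 0.46) at day 4 (limma, adjusted p = 0.47 and 0.98). At day 6 the interaction was -0.76 ± 0.22 (limma, adjusted p = 0.01), with signal not above background in PL2F8, and it was -0.11 (adjusted p = 0.30) in the authors' matrix, which has no background correction. Slc38a2, an amino acid transporter (r = 0.98), and A130053G17Rik (r = 0.97) had the most similar profiles.

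Axin2, the scaffold of the destruction complex that is itself induced by Wnt and widely read as a reporter of the pathway (chromosome 11, 108917828 to 108950783), moved little and not in 1 direction. Levels in AB2.2 were 7.22 and 7.31 at day 0, 6.74 and 6.80 at day 2, 7.63 and 7.87 at day 4, 7.35 and 7.41 at day 6, and 7.58 at day 8. PL2F8 arrays read 6.41 and 6.53 at day 0, 6.39 and 6.38 at day 2, 6.92 and 6.84 at day 4, 6.33 and 6.56 at day 6, and 4.76, not above background, at day 8. The clearest feature was the gap between the lines, since every AB2.2 array lay above every PL2F8 array of the same day. At day 0 PL2F8 was lower by -0.79 ± 0.10 (limma, adjusted p = 1.1e-04). In AB2.2 Axin2 fell at day 2 (-0.50 ± 0.10, limma, adjusted p = 0.002), rose at day 4 (0.48 ± 0.10, adjusted p = 0.0013) and was at 0.12 at day 6 (adjusted p = 0.36; 0.48 and adjusted p = 0.0026 with median scaling). The rise at day 8, 0.32 ± 0.12 (limma, adjusted p = 0.048), did not hold without any 1 of the AB2.2 arrays of days 0, 2 and 6 or of the PL2F8 arrays of days 0, 2 and 4 (0.27 to 0.37, adjusted p up to 0.15).

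In PL2F8 Axin2 was at -0.09 at day 2 (limma, adjusted p = 0.56), rose by 0.41 ± 0.10 at day 4 (adjusted p = 0.0044) and was at -0.03 at day 6 (adjusted p = 0.82; -1.41 and adjusted p = 2.6e-10 with median scaling). With median scaling the day 4 value was 0.02 (adjusted p = 0.91), where the median of all genes was -0.24. No interaction was called with quantile normalization, at 0.41 ± 0.14 at day 2, -0.08 at day 4 and -0.14 at day 6 (limma, adjusted p = 0.092, 0.74 and 0.42). With median scaling those at days 4 and 6 were called, at -0.65 and -1.89 (limma, adjusted p = 0.0045 and 8.9e-10), where the medians of all genes were -0.37 and -1.42. The value at day 2 was 0.45 (adjusted p = 0.048) when the 3 dim PL2F8 arrays were left out. Zfp12 (r = 0.947) and Rtl6 (r = 0.941) had the most similar profiles.

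Dkk1, a secreted inhibitor that binds Lrp5 and Lrp6 (chromosome 19, 30545876 to 30549496), was above background on 6 of 18 arrays, 5 of them AB2.2. In AB2.2 its level was 5.17 on 1 day 2 array, 4.82 on 1 day 4 array, 5.47 and 5.12 at day 6 and 5.57 at day 8, with the other 4 arrays not above background at 4.51 to 4.69. In PL2F8 only 1 day 2 array was above background, at 4.83, and the other 8 lay between 4.29 and 4.80. The AB2.2 array of day 8 and 1 of day 6 were the highest, while the other day 6 array, at 5.12, lay below the day 2 array at 5.17. In AB2.2 Dkk1 was at least 1.42-fold above day 0 at day 6 and at least 1.73-fold at day 8 (limma, adjusted p = 0.0029 and 0.0015). At day 2 the AB2.2 change of 0.37 was not called (limma, adjusted p = 0.12), but it was 0.61 (adjusted p = 0.031) without the first array of that day. In PL2F8 no day was called (log2 change 0.14, 0.12 and 0.21, adjusted p = 0.59, 0.61 and 0.31 in limma), and at days 4 and 6 neither side was above background. The interaction at day 6, -0.53 ± 0.25, was not called (limma, adjusted p = 0.084). It was -0.88 (adjusted p = 0.0028 in limma) with median scaling, where the median of all genes was -1.42. Without the second AB2.2 array of day 6 it was -0.71. Atat1 (r = 0.907) and Cltrn (r = 0.906) had the most similar profiles. In AB2.2 the summed signal of the visceral endoderm markers was also highest at day 8, at 26600. Their median log2 change from day 0 was not, at 3.18 at day 6 and 2.53 at day 8. The 6 primitive streak markers had a summed signal between 60.3 and 62.1 at day 0, between 572 and 592 at day 4, between 607 and 680 at day 6 and of 335 at day 8, so their sum was lower at day 8, where the Dkk1 level was highest. The part of either cell type in the Dkk1 values was not tested.

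**Figure D3:**
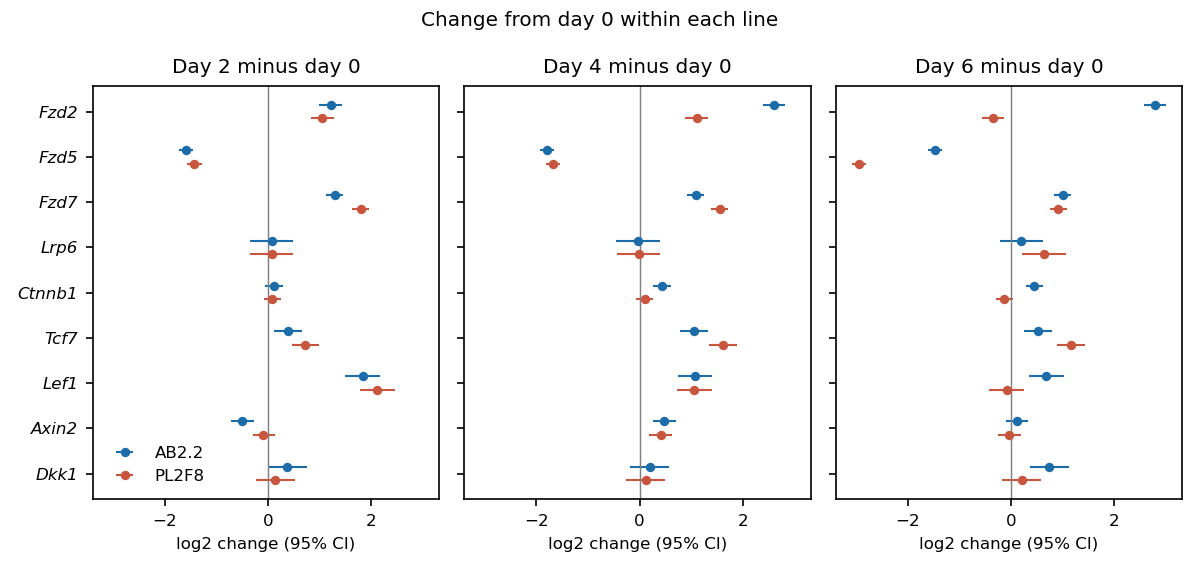
Log2 change from day 0 (horizontal axis, point and 95% confidence interval from limma) of the 9 genes at days 2, 4 and 6, AB2.2 in blue and PL2F8 in red. At day 6 Fzd2 is at 2.79 in AB2.2; in PL2F8 it was not above background at that day, so its point at -0.35 is the model's value and no measured size. The PL2F8 values of Fzd7 (0.92), Lrp6 (0.64) and Tcf7 (1.16) at day 6 flip with median scaling, to -1.10, -0.29 and -0.50, as does that of Ctnnb1 at day 4 (0.10), to -0.43.

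Over the 9 members, the counts called can be read against the share of all 16110 genes called in the same comparison. In AB2.2, 4 members were higher and 2 lower at day 2, where 17.5% of all genes were called higher and 17.3% lower. At day 4 there were 6 and 1 (27.4% and 23.6% of all genes), at day 6 again 6 and 1 (28.4% and 26.6%) and at day 8 5 and 1 (24.2% and 24.3%). Fzd2, Fzd7, Fzd5 and, up to day 6, Tcf7 and Lef1 supplied most of these calls. In PL2F8, 4 were higher and 1 lower at day 2 (17.5% and 19.0% of all genes), 5 and 1 at day 4 (26.4% and 24.7%), and 3 and 2 at day 6 (31.1% and 35.0%). All the comparisons of a line share its day 0 arrays, so the days are not independent of each other. The median log2 change of the members in AB2.2 was 0.37, 0.48, 0.52 and 0.45 at days 2, 4, 6 and 8, beside medians of all genes between -0.02 and 0.03. In PL2F8 it was 0.14, 0.41 and -0.03 at days 2, 4 and 6, beside 0.00, 0.02 and -0.03.

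At day 0, 2 members (Fzd5 and Ctnnb1) were higher and 3 (Fzd2, Fzd7 and Axin2) lower in PL2F8 than in AB2.2, where 14.3% of all genes were higher and 13.1% lower. The Ctnnb1 call was lost without any 1 of the 4 day 0 arrays and with median scaling (0.25), and the mean of its probes gave -0.07. All 7 feeder cell markers had a probe, but only 3 passed the filter on dim probes and were tested. These 3 summed to between 231 and 248 in AB2.2 and between 581 and 622 in PL2F8 at day 0. Of the 3, 2 were called higher and 1 lower in PL2F8. Their part in the differences of the members was not tested. The interaction was called for 1 member at day 2, 4 at day 4 and 5 at day 6, where 10.1%, 29.9% and 55.5% of all genes were called in either direction. The values at day 6 rest on the dim PL2F8 arrays.

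The rest of the pathway was followed in 7 lists, given at AB2.2 day 6 and at PL2F8 day 4, the last day of that line with bright arrays. The days differ, so these counts do not compare the lines. In AB2.2 at day 4, 4 ligands and secretion genes were higher and 4 lower (median log2 change 0.04). Of the other receptors, co-receptors and R-spondins, 6 were higher and 3 lower then (0.24). Of 13 ligands and secretion genes, 6 were higher and 2 lower in AB2.2 at day 6, and 2 higher and 3 lower in PL2F8 at day 4 (median log2 change 0.20 and -0.01). Of all genes, 28.4% were higher and 26.6% lower in AB2.2 at day 6, and 26.4% and 24.7% in PL2F8 at day 4. Wls, which carries Wnt ligands to the cell surface, rose by 2.58 ± 0.16 in AB2.2 and Wnt8a was at least 1.42-fold higher (limma, adjusted p = 2.7e-08 and 3.3e-06). In PL2F8 Wnt6 was at least 2.35-fold lower and Wnt3a at least 1.31-fold lower (limma, adjusted p = 4.9e-07 and 2.7e-04). Of 13 other receptors, co-receptors and R-spondins, 6 were higher and 2 lower in AB2.2 and 3 and 2 in PL2F8 (0.22 and 0.00). Fzd3, a Frizzled known from axon guidance, fell in both lines (-0.71 ± 0.10 and -0.57 ± 0.10, limma, adjusted p = 6.2e-05 and 4.3e-04). Rspo3, an R-spondin that strengthens Wnt signals, was at least 2.91-fold higher in AB2.2 (limma, adjusted p = 1.4e-04), and Ptk7, a planar polarity co-receptor, rose by 1.07 ± 0.16 in PL2F8 (adjusted p = 1.3e-04).

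Of 14 antagonists other than Dkk1, 6 were higher and 3 lower in AB2.2 and 2 and 3 in PL2F8 (median 0.23 and 0.01). The secreted inhibitors Frzb and Cer1 were at least 2.89-fold and at least 1.66-fold higher in AB2.2 (limma, adjusted p = 3.7e-07 and 9.0e-07). In PL2F8 the Frizzled-related proteins went in opposite directions, Sfrp2 rising by 0.77 ± 0.10 and Sfrp1 changing by -0.61 ± 0.09 (limma, adjusted p = 3.1e-05 and 1.4e-04). Among 15 cytoplasmic transducers and destruction complex genes, 5 were higher and 0 lower in each line at these days (median 0.18 and 0.18). In AB2.2 at day 4, 5 were higher and 1 lower (27.4% and 23.6% of all genes). On the dim PL2F8 arrays of day 6, 8 were higher and 4 lower (31.1% and 35.0% of all genes). The genes higher at AB2.2 day 6 or PL2F8 day 4 included the tankyrases, which mark Axin for destruction. Tnks was at 1.42 ± 0.08 in AB2.2 and Tnks2 at 0.99 ± 0.08 in PL2F8 (limma, adjusted p = 1.8e-08 and 8.4e-07). Dvl1, a Dishevelled protein that acts below the receptor, rose by 0.89 ± 0.09 in AB2.2 and the casein kinase Csnk1d by 1.07 ± 0.09 in PL2F8 (limma, adjusted p = 1.8e-06 and 1.0e-06).

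Of 15 TCF partners and nuclear cofactors, 5 were higher and 7 lower in AB2.2 and 3 and 6 in PL2F8 (median -0.16 and -0.12). Ctbp2, a corepressor, fell in both lines (-2.66 ± 0.08 and -2.65 ± 0.08, limma, adjusted p = 5.9e-11 and 1.7e-10). Bcl9l, a beta-catenin coactivator, rose by 1.71 ± 0.10 in AB2.2, and Tle6, of the Groucho family, changed by -1.05 ± 0.08 in PL2F8 (limma, adjusted p = 2.3e-08 and 2.6e-07). Of 15 other response genes, 6 were higher and 5 lower in AB2.2 and 3 and 3 in PL2F8 (0.37 and -0.07). The streak gene T, which is also on the marker list of that tissue, and the posterior gene Cdx2 were at least 5.68-fold and at least 5.95-fold higher in AB2.2 (limma, adjusted p = 2.1e-10 and 1.0e-09). In PL2F8 the cell surface receptor Cd44 changed by -1.31 ± 0.12 and Ccn4, a secreted matrix protein, was at least 1.41-fold lower (limma, adjusted p = 1.6e-06 and 7.2e-06). Of 7 adhesion partners of beta-catenin, 2 were higher and 1 lower in each line (0.14 and 0.18). The alpha-catenin-like gene Ctnnal1 fell in both (-1.34 ± 0.09 and -0.70 ± 0.09, limma, adjusted p = 1.0e-07 and 4.5e-05), p120 catenin Ctnnd1 rose by 0.86 ± 0.09 in AB2.2 and E-cadherin Cdh1 by 0.76 ± 0.10 in PL2F8 (adjusted p = 3.2e-06 and 4.7e-05).

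**Figure D4:**
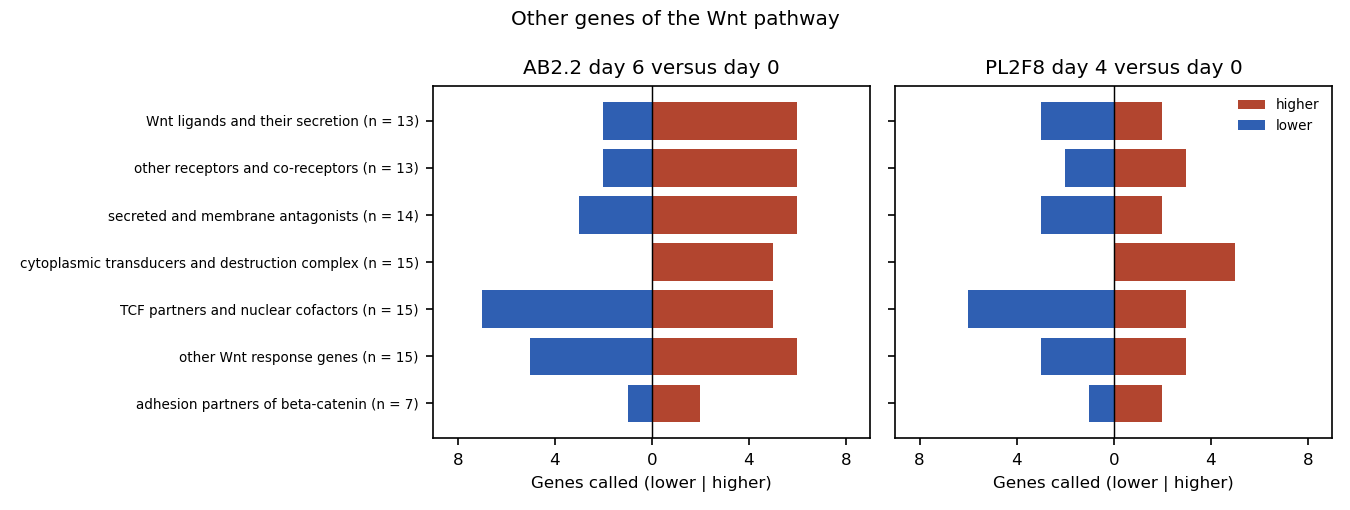
Number of genes called lower (blue, to the left) and higher (red, to the right) in each of 7 lists of other Wnt pathway genes, at AB2.2 day 6 and PL2F8 day 4 against day 0 of the same line, with quantile normalization only. The transducer list (15 genes) has 5 higher and 0 lower in each panel. The TCF partner list (15 genes) has 5 higher and 7 lower in AB2.2 and 3 and 6 in PL2F8. The shares of all genes higher and lower were 28.4% and 26.6% in the AB2.2 panel and 26.4% and 24.7% in the PL2F8 panel. The panels show unlike days and do not compare the lines.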

How the data were processed

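Per the labels, RNA was extracted with an RNeasy kit, labelled with biotin and hybridized to Illumina mouse bead arrays, 18 in all. The probe table that the authors deposited holds, per the file headers, the mean bead intensity before any normalization and a detection p-value. It lists 45281 probes, of which 445 with shifted fields were left out (0.983%), and a matrix of processed intensity by gene name. The software behind both is not given in the sources used here. The matrix held no probe numbers and the probe table no names, so probes were named by matching values over the 18 arrays. Of 30848 lines, 21635 matched 1 probe (largest log2 distance 0.0393, next probe at least 0.1664 away), 8867 the mean of up to 14 neighbouring probes (262 of them ambiguous) and 346 none. Recomputing showed the matrix values to be quantile normalized without background correction. Symbols were updated through the platform annotation (13161 lines) and RefSeq for GRCm38.p6 (5661 by current and 3214 by older symbol), and 8466 were kept as deposited.

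Signal was background-corrected with normexp (limma 3.58.1, R 4.3.3) by way of the detection p-values (offset 16), followed by quantile normalization of log2 values. Of the probes detected below 0.05 on at least 2 arrays (23879), the brightest of each gene was used, leaving 16110 genes. A limma model with a mean for each line and day (8 residual and 4.11 prior degrees of freedom) gave moderated tests with Benjamini-Hochberg adjustment over all genes, called below 0.05. An "at least" fold compares the measured group with the lowest signal above background on the other group's arrays, or with the gene's own signal there where that was higher. The number of arrays limits the precision. Scan or chip batches are not given in the labels. The replicate numbers of the labels did not pair samples: same-number deviations correlated between -0.03 and 0.04 over 28 pairs of groups. Alternatives covered normalization, filters, probe choice, array weights, the dim arrays and each array of days 0 to 6. The members and gene lists were chosen with earlier results of these data known. Named genes were the members, the 2 list genes with the smallest p among those called at AB2.2 day 6 and PL2F8 day 4, and the 2 genes most correlated with each member whose group means span at least 1.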

Additional observations from a re-analysis of the deposited data

Results flagged for a closer look

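In 10 results the change after LIF removal differed between the lines by the interaction test in limma (change in PL2F8 minus change in AB2.2, log2). Of all genes, 10.1%, 29.9% and 55.5% were called by that test at days 2, 4 and 6. For Fzd2 the difference was -1.50 at day 4 and -3.15 at day 6, and for Fzd5 it was -1.48 at day 6. For Fzd7 it was 0.50 at day 2 and 0.46 at day 4. For Ctnnb1 it was -0.34 at day 4 and -0.59 at day 6, with its brightest probe. For Tcf7 it was 0.56 at day 4 and 0.64 at day 6, and for Lef1 it was -0.76 at day 6. The 5 values at day 6 rest on the dim PL2F8 arrays, and those of Fzd2 and Lef1 on PL2F8 signal that was not above background at that day. In the authors' matrix without background correction the Lef1 value was -0.11 (limma, adjusted p = 0.30). Median scaling reversed Fzd7 at day 4 (-0.16) and Tcf7 at days 4 and 6 (-0.05 and -1.43). Fzd7 at day 2 was not called with it (0.42). With its other kept probes Fzd5 at day 6 was not called (-0.43 and -0.62). The mean of the gene's probes reversed Ctnnb1 at days 4 and 6 (0.11 and 0.99). No group held the 4 arrays needed to look for a sample far from the others.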

How the results depend on the processing

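Of 99 member results (9 genes in 11 comparisons) 57 were called, and 41 of these kept direction and call under each alternative run for them and on leaving out each of 16 arrays. Of the 42 not called, 26 were called under none. Both counts leave out a gene's other probes, which changed some of the results counted as kept. The Fzd5 interaction at day 6, among the 41, was not called with its other kept probes (-0.43 and -0.62). Ctnnb1 in AB2.2 at day 2, among the 26, was called at 0.66 with the Catnb probe. Up to 9 alternatives were run for a result: the fit on 1 line alone gives no comparison between lines, and that without the 3 dim PL2F8 arrays gives none at day 6 of PL2F8. Median scaling reversed Ctnnb1 in PL2F8 at day 4 (-0.43), Fzd7 (-1.10), Lrp6 (-0.29) and Tcf7 (-0.50) in PL2F8 at day 6, the day 4 interactions of Fzd5 (-0.45), Fzd7 (-0.16) and Tcf7 (-0.05), and the day 6 interactions of Lrp6 (-0.80) and Tcf7 (-1.43). It moved the median of all genes by 0.17 in AB2.2 at day 6, by -0.12, -0.24 and -1.08 in PL2F8 at days 2, 4 and 6, and by -0.37 and -1.42 in the interactions at days 4 and 6. The mean of a gene's probes reversed Ctnnb1 in PL2F8 at day 6 (1.33), between lines at day 0 (-0.07) and in the day 4 and day 6 interactions (0.11 and 0.99). Other probes, an alternative chosen after seeing the data, also reversed Ctnnb1. The Catnb probe gave 3.90 in PL2F8 at day 6, -0.21 between lines at day 0, and 0.44 and 2.91 for the interactions. The fourth gave -0.32, -0.55 and -0.95 in AB2.2 at days 4, 6 and 8, 1.66 in PL2F8 at day 6, -0.47 between lines, and 0.64 and 2.21 for the interactions. The cause was not tested. Members called in the day 2 interaction were 0 with median scaling and 2 without the 3 dim PL2F8 arrays (main count 1), and in the day 6 interaction 9 with median scaling (main count 5). Genes called in the day 4 interaction were 8059 with median scaling (main count 4814). On leaving out single arrays, genes called ranged from 2854 to 5156 between lines at day 0 (main count 4417, lowest without either PL2F8 array of day 0) and from 971 to 2233 in the day 2 interaction (main count 1630, under 1100 without any PL2F8 array of day 0 or 2). Members called ranged from 1 to 2 in the day 2 interaction (2 without either PL2F8 array of day 6) and from 2 to 4 in the day 4 interaction (2 without either PL2F8 array of day 4). Where that left 1 array in a group, it was assumed to vary like the others. The replicate block changed no member call and gave, for example, 8808 genes called in AB2.2 at day 6 against 8863 without it. List counts were computed with quantile normalization only. Dim arrays limit what can be read of PL2F8 at days 6 and 8.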
